A study of Mus musculus with 6 samples.

Results

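The genes described here are the aminoacyl tRNA synthetases and the genes of the amino acid response, 45 of the 18005 genes in the count table. They were chosen by symbol: every gene named by an amino acid letter followed by "ars", with or without a closing 1 or 2, together with Eprs and a set of 10 named genes of amino acid synthesis, one-carbon metabolism and transport. Of the 45 genes, 18 encode cytosolic synthetases, 17 mitochondrial synthetases and 10 amino acid response genes. The hearts came from 3 young and 3 old mice, and polyadenylated RNA was sequenced with a stranded library kit. Both groups were of WT genotype and had "no treatment", so age is the labelled difference between them, and the series title sets the comparison in pathological cardiac hypertrophy. Ages, strain and sex are not given in the labels. Whole heart RNA mixes cardiomyocytes with fibroblasts, endothelial cells and blood cells, so fewer cells of a type and less RNA per cell cannot be told apart.

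An aminoacyl tRNA synthetase joins an amino acid to its tRNA, the step that fixes which amino acid a codon adds to a protein. Most amino acids have one nuclear gene for the cytosolic enzyme and another, marked by a 2 in its symbol, for the enzyme that is imported into mitochondria, which in the heart serve the translation of respiratory chain subunits. When uncharged tRNA accumulates, the kinase GCN2 phosphorylates the initiation factor eIF2, general translation falls, and translation of the transcription factor ATF4 rises. ATF4 binds C/EBP-ATF elements with its partners and raises transcription of asparagine synthetase, serine synthesis enzymes, amino acid transporters and a number of cytosolic synthetases.

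The core of that element, TGATGNAA on either strand, was looked for in RefSeq promoters of 300 bases (250 before and 50 after the start used in the promoter table), on GRCm38.p6, which is an older build than the GRCm39 named in the submitters' processing notes. Promoters were found for 34 of the 45 genes, and 8 of these (23.5%) held a match, against 4.51% of all 27025 genes in the table. Matches lay in 5 of 11 cytosolic synthetase genes, in 0 of 14 mitochondrial ones and in 3 of 9 amino acid response genes. Stretches from 7 of these genes are shown because they set the genes with a possible ATF4 site beside their measured change, and they run 5′ to 3′ on the strand of the gene with the match in capitals and 10 bases on each side.
Gars, chr6:55037961-55037988: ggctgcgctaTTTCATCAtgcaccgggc
Iars, chr13:49682127-49682154: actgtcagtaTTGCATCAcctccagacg
Tars, chr15:11399656-11399683: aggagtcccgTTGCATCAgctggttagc
Yars, chr4:129189896-129189923: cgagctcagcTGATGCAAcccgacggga
Asns, chr6:7693215-7693242: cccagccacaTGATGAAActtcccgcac
Chac1, chr2:119351039-119351066: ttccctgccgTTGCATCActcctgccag
Slc7a11, chr3:50443662-50443689: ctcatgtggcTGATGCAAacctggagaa
The matches of Gars, Iars, Tars and Chac1 lay on the strand opposite to the gene, and those of Yars, Asns and Slc7a11 on the same strand. In Asns, Gars and Tars the match began 23, 30 and 15 bases before the start, in Slc7a11 and Chac1 66 and 193 bases before it, while in Iars and Yars it began 7 and 3 bases after the first base. Slc7a11 held another match that is not printed. A match is a string of letters and not a measured binding site.

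Libraries held 11295280 to 12514005 counts, so that 1 count was worth 0.0799 to 0.0885 CPM (counts scaled to a common library total, here with edgeR's TMM factors). Genes were tested with edgeR's quasi-likelihood F test and called at a Benjamini-Hochberg adjusted p under 0.05. Of all 12893 genes tested 22.0% were called, 11.4% higher and 10.6% lower in old hearts, and the 3 old mice did not overlap the 3 young mice for 39.9% of genes (19.6% above and 20.3% below). Of the calls 51.7% were rises, a share that was 40.2% with upper-quartile scaling, 32.7% with library size alone and 35.1% on log2(FPKM + 1). The cardiomyocyte markers, the defining transcripts of the tissue, summed to 69010 to 71675 CPM in young and 77758 to 81416 CPM in old hearts without overlap, with 2 of 10 higher, 1 lower (Mybpc3) and none at 0. Without Actc1, which rose (log2 fold change 1.08 ± 0.08), the sums of the other 9 overlapped, at 60855 to 63765 CPM in young and 61607 to 63723 CPM in old hearts. The 8 endothelial markers summed to 2705 to 2928 CPM in young and 2191 to 2929 CPM in old hearts, with 2 lower. Of the other markers, 2 of 8 for fibroblasts were higher and 1 lower, 3 of 8 for macrophages higher and 0 lower, 3 of 7 for smooth muscle and pericytes higher and 1 lower, 2 of 7 for lymphocytes higher and 1 lower, and 1 of 7 for red cells lower. The macrophage markers went both ways, with log2 fold changes from -0.31 to 0.54 and a median of -0.1. Without overlap, 3 of them lay above and 3 below the young mice. All red cell markers had negative log2 fold changes, from -1.51 to -0.78. Their sums were 2163 to 16086 CPM in young and 3195 to 6803 CPM in old hearts, with the young range enclosing the old one. The part of cell composition in the results below was not tested.

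Few of the synthetases were called as different between young and old hearts. Of the 35 synthetase genes, 5 were called (14.3%, against 22.0% of all genes), 2 higher and 3 lower, and the median log2 fold change was -0.02, against -0.01 over all genes tested. Among the 18 cytosolic genes, 1 was higher (Rars) and 3 were lower (Eprs, Lars and Wars), with log2 fold changes between -0.28 and 0.27. Among the 17 mitochondrial genes, 1 was higher (Sars2) and 0 were lower, with log2 fold changes between -0.37 and 0.45. At an unadjusted p under 0.05, edgeR's test took 8 of the 18 cytosolic and 4 of the 17 mitochondrial genes. Over all 12893 genes tested it took 4642. DESeq2 called 2 cytosolic (Kars and Wars, both lower) and 0 mitochondrial genes. Over all genes DESeq2 called 1280 higher and 1008 lower.

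**Figure D1:**
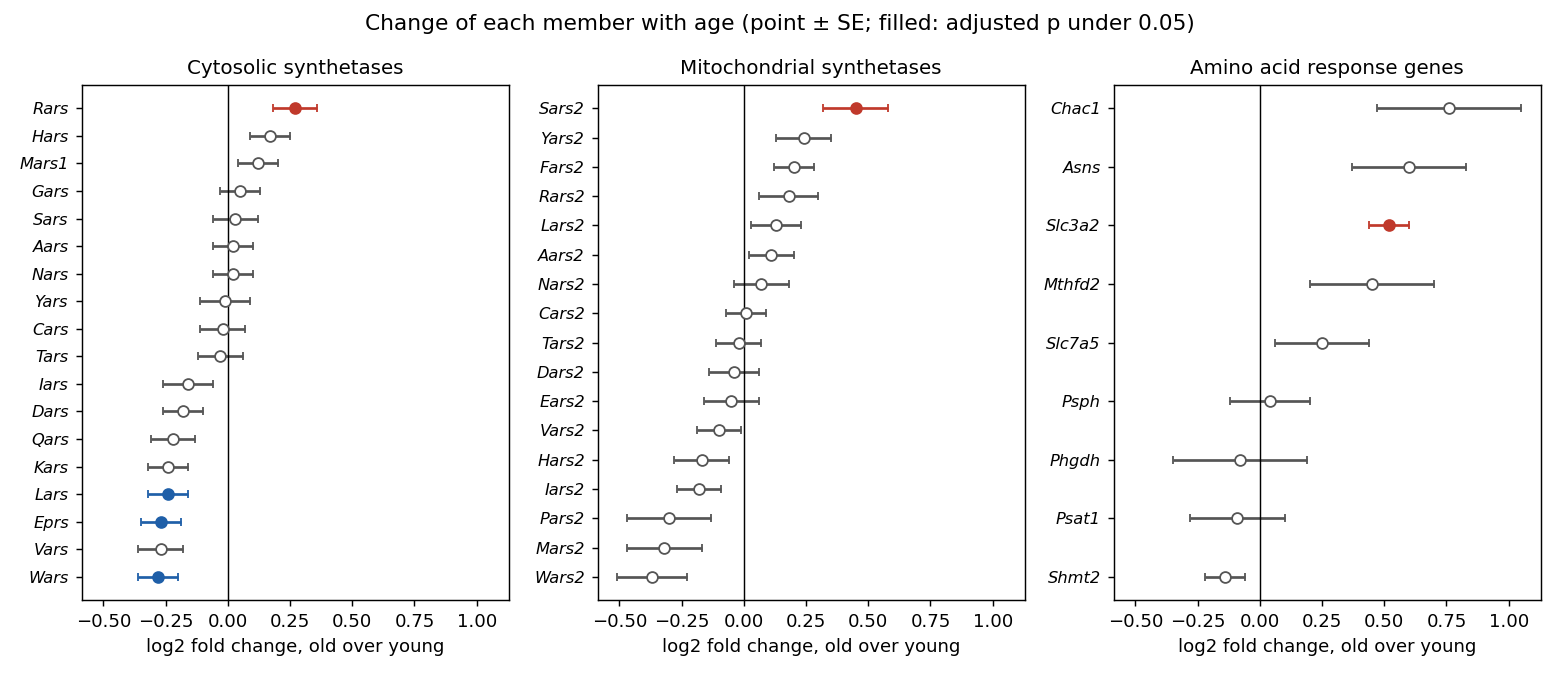
Log2 fold change (old over young, x axis) of each tested gene (y axis), in 3 panels for cytosolic synthetases, mitochondrial synthetases and amino acid response genes, with points for the estimate, bars for its SE and filled points for an adjusted p under 0.05. Synthetases lie between -0.37 and 0.45 with 5 filled points, and Slc3a2 is the filled point among the amino acid response genes.

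Wars, the tryptophanyl tRNA synthetase, had 69.1, 74.2 and 72.3 CPM in young mice 1 to 3 and 55.8, 61.0 and 61.4 CPM in old mice 1 to 3. All old hearts lay below all young hearts, and the log2 fold change was -0.28 ± 0.08 (SE, edgeR adjusted p = 0.029). Wars overlaps Wdr25 in the RefSeq annotation, and the strand setting of the counting is not given in the sources used here.

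Eprs encodes the bifunctional enzyme that charges both glutamate and proline tRNAs and is a core of the multisynthetase complex. Its levels were 96.7, 84.6 and 89.2 CPM in young and 79.0, 74.1 and 71.8 CPM in old mice. The highest old heart was below the lowest young one, with a fitted log2 change of -0.27 ± 0.08 (edgeR adjusted p = 0.04). Lars, the leucyl enzyme and also a leucine sensor for mTORC1, had 53.6, 53.7 and 51.4 CPM in young and 46.0, 43.1 and 45.1 CPM in old mice. Its groups were tight and apart, and it fell by 0.24 ± 0.08 on the log2 scale (edgeR adjusted p = 0.041).

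Rars, the arginyl enzyme, went the other way. It had 31.5, 27.3 and 31.4 CPM in young and 37.0, 37.9 and 34.4 CPM in old mice. The old hearts lay above the young ones, and the log2 fold change was 0.27 ± 0.09 (edgeR adjusted p = 0.046).

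These 4 calls stood close to the threshold. With 1 library left out at a time, Lars was called in 0 of 6 fits (adjusted p 0.062 to 0.15), Eprs only without young 2 (0.065 to 0.19 in the other fits), Rars only without old 3 (0.084 to 0.13) and Wars only without old 2 or old 3 (0.07 to 0.13). DESeq2 did not call Lars or Rars (adjusted p = 0.12 for both) or Eprs (0.05 after rounding, just past the threshold). With library size alone, 0 cytosolic genes were called higher and 7 lower, and over all genes 1032 higher and 2122 lower. On log2(FPKM + 1), 0 cytosolic genes were called higher and 7 lower, and over all genes 907 higher and 1678 lower.

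The other 14 cytosolic genes were not called. Kars, the lysyl enzyme, which serves mitochondria as well, was the most abundant synthetase per length with 74.8 FPKM (a level scaled by the length of the gene and by the library total, mean of 6 libraries). It had 193, 196 and 179 CPM in young and 164, 166 and 150 CPM in old mice, which did not overlap, with a fitted log2 change of -0.24 ± 0.08 (edgeR adjusted p = 0.056). DESeq2 called Kars lower (adjusted p = 0.045), as did library size alone in edgeR (adjusted p = 0.012). Nars, the asparaginyl enzyme and the next most abundant uncalled cytosolic gene at 32.3 FPKM, overlapped between the groups (log2 fold change 0.02 ± 0.08, edgeR adjusted p = 0.88). The lowest per length were Cars at 5.88 FPKM and Vars at 5.3 FPKM.

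Aars and Iars are the alanyl and isoleucyl enzymes. Aars had 66.1, 61.4 and 61.5 CPM in young and 65.5, 65.6 and 59.97 CPM in old mice, and its groups overlapped throughout (log2 fold change 0.02 ± 0.08, edgeR adjusted p = 0.91). Iars had 68.0, 65.2 and 74.8 CPM in young and 67.9, 64.6 and 53.1 CPM in old mice, with old 3 lowest, old 2 just below the young values and old 1 within their range (log2 fold change -0.16 ± 0.10, edgeR adjusted p = 0.27). Gars, Tars and Yars had log2 fold changes of 0.05, -0.03 and -0.01.

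Old hearts lay below young hearts without overlap in 7 of the 18 cytosolic genes and above them in 2, against 20.3% and 19.6% of all genes. The 7 lower ones were Dars, Eprs, Kars, Lars, Qars, Vars and Wars, and the 2 higher ones were Hars and Rars. Summed over the 18 genes, young hearts had 1139 to 1201 CPM and old hearts 1032 to 1112 CPM, so the sums did not overlap. A grouping made after the values were seen set the 8 enzymes of the multisynthetase complex (Dars, Eprs, Iars, Kars, Lars, Mars1, Qars and Rars) beside the 10 free ones. The complex had 1 gene higher and 2 lower with a median log2 fold change of -0.20, and the free enzymes had 0 higher and 1 lower with a median of 0.00 (37.5% and 10% called, against 22.0% of all genes). The scaffold proteins of the complex and a set of editing factors (6 tested genes together) held no call, against 22.0% of all genes. Aimp1 had a log2 fold change of -0.10 ± 0.09 and Aimp2 of 0.12 ± 0.10 (edgeR adjusted p = 0.47 and 0.40). At an unadjusted p under 0.05 edgeR took 0 of these 6, against 4642 of all 12893 genes, and DESeq2 and limma-voom called 0. Of the 3 cytosolic synthetase genes whose symbols fall outside the rule, none was called either, and Farsa and Tarsl2 had log2 fold changes of 0.13 and -0.02.

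**Figure D2:**
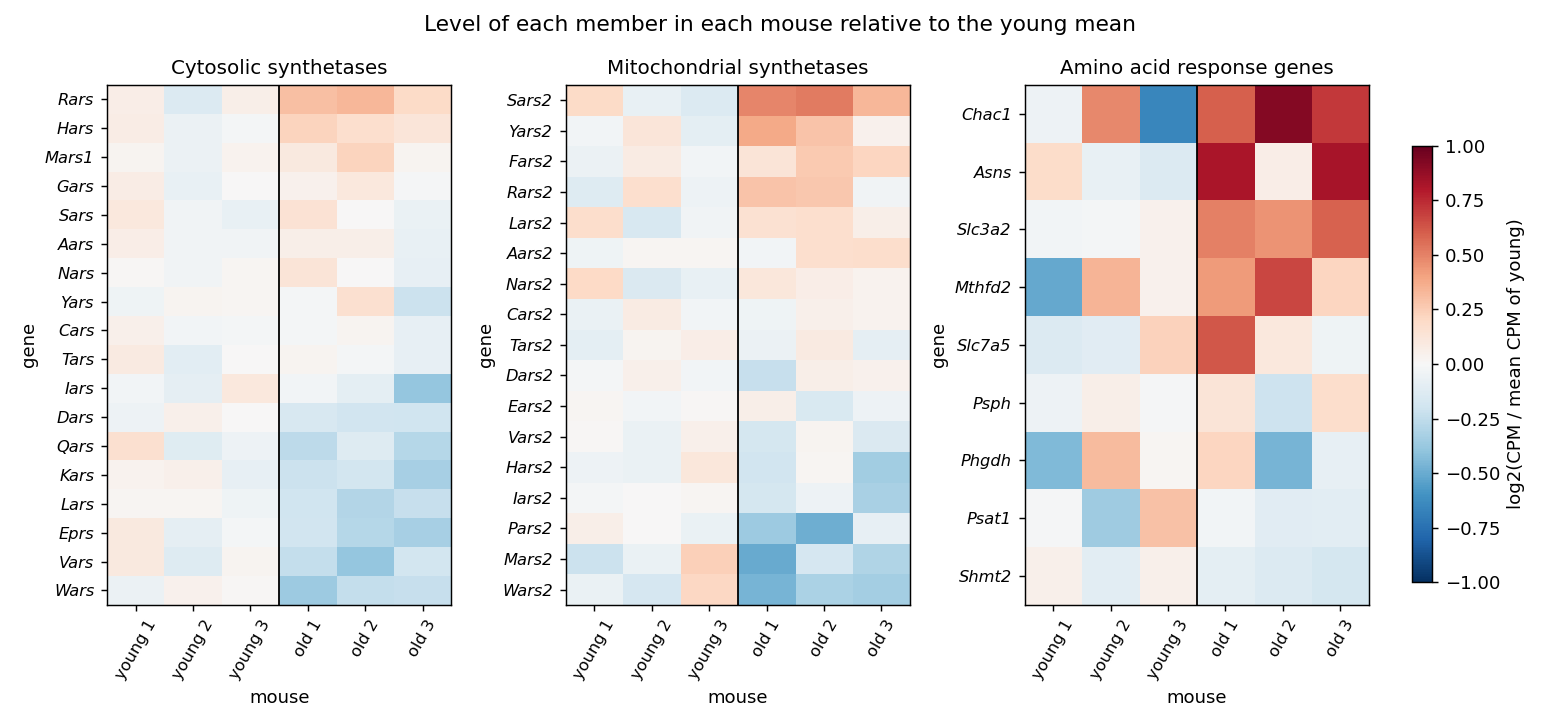
Level of each tested gene (rows) in each mouse (columns), as log2 of CPM over the mean CPM of the young mice, in 3 panels by group, with red above and blue below the young mean. The lower rows of the cytosolic panel, from Dars to Wars, are blue in all 3 old mice, while Asns is near the young mean in old 2 and high in old 1 and old 3.

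Sars2, the mitochondrial seryl enzyme, was the mitochondrial gene that rose. It had 11.1, 9.22 and 8.82 CPM in young and 13.6, 13.9 and 12.2 CPM in old mice. All old hearts lay above all young ones, with a fitted log2 change of 0.45 ± 0.13 (edgeR adjusted p = 0.028). Leaving out young 2, young 3, old 1 or old 2 each ended the call (adjusted p 0.069 to 0.11), in DESeq2 (adjusted p = 0.085) and with library size alone (adjusted p = 0.064).

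Wars2, the mitochondrial tryptophanyl enzyme, had the most negative estimate and was not called. Its levels were 10.4, 9.66 and 12.5 CPM in young and 7.88, 8.73 and 8.58 CPM in old mice, which did not overlap (log2 fold change -0.37 ± 0.14, edgeR adjusted p = 0.074). It was chosen for mention after its values were seen, as was Fars2, the mitochondrial phenylalanyl enzyme, which had 71.0, 78.6 and 72.7 CPM in young and 80.8, 88.7 and 86.1 CPM in old mice. The old hearts had the higher Fars2 levels without overlap, and the log2 fold change of 0.20 ± 0.08 missed the threshold (edgeR adjusted p = 0.097).

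The 2 most abundant mitochondrial synthetases per length, Cars2 at 23.6 FPKM and Lars2 at 18.7 FPKM, overlapped between the groups, with log2 fold changes of 0.01 ± 0.08 and 0.13 ± 0.10. Aars2, the alanyl enzyme whose mutation causes an infantile cardiomyopathy, had 25.1, 26.3 and 26.2 CPM in young and 25.3, 29.1 and 29.2 CPM in old mice, with old 1 inside the young range (log2 fold change 0.11 ± 0.09, edgeR adjusted p = 0.41). Iars2 had 116, 118 and 119 CPM in young and 104, 113 and 93.9 CPM in old mice, all old hearts below the young ones (log2 fold change -0.18 ± 0.09, edgeR adjusted p = 0.16). Old hearts were above young ones without overlap in 2 of the 17 mitochondrial genes and below them in 3. The shares over all genes were 19.6% above and 20.3% below. The summed level was 557 to 561 CPM in young and 543 to 594 CPM in old hearts, with the old range enclosing the young one. Whether cytosolic and mitochondrial genes differed from each other in their response was not tested.

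For 14 amino acids both a cytosolic and a mitochondrial gene were measured, and their ratio within each mouse does not depend on the scaling between libraries. Per length (FPKM), the cytosolic transcript was higher in all 6 libraries for 9 amino acids and the mitochondrial one for 4, and valine lay close to equal. The mean ratio in young hearts ran from 34.1-fold for asparagine and 18.6-fold for tryptophan, both in favour of the cytosolic gene, to 0.253-fold for cysteine. These sizes depend on the lengths behind the deposited FPKM. The lengths were 2603 bases for Nars and 15488 for Nars2, and 2865 for Wars and 8027 for Wars2. Without scaling by length, young means were 83.5 CPM for Nars and 14.7 CPM for Nars2. Wars and Wars2 had 71.9 and 10.9 CPM. In 9 of the 14 pairs old and young mice overlapped. Among single genes, 39.9% did not overlap between the groups in CPM, and the share for ratios of other gene pairs was not worked out.

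For serine, the log2 ratio of Sars to Sars2 was 2.35, 2.48 and 2.5 in young and 2.10, 1.93 and 2.05 in old mice, all old mice being lower. Leucine (Lars to Lars2) had log2 ratios of -0.56, -0.22 and -0.41 in young and -0.76, -0.87 and -0.69 in old mice, again with the old mice lower, and the mean differences for serine and leucine were -0.42 and -0.38. Tyrosine was the third pair with lower old values, by a mean difference of -0.26. Methionine and histidine were the pairs with higher old values: Mars1 to Mars2 had a log2 ratio of 1.45, 1.21 and 1.0 in young and 1.81, 1.6 and 1.54 in old mice, and the mean differences were 0.43 and 0.34. Hars and Hars2 overlap in the annotation, as do Mars1 and Ddit3. These ratios are given without a test, since an exact permutation test of 3 against 3 mice cannot give a p below 0.1.

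**Figure D3:**
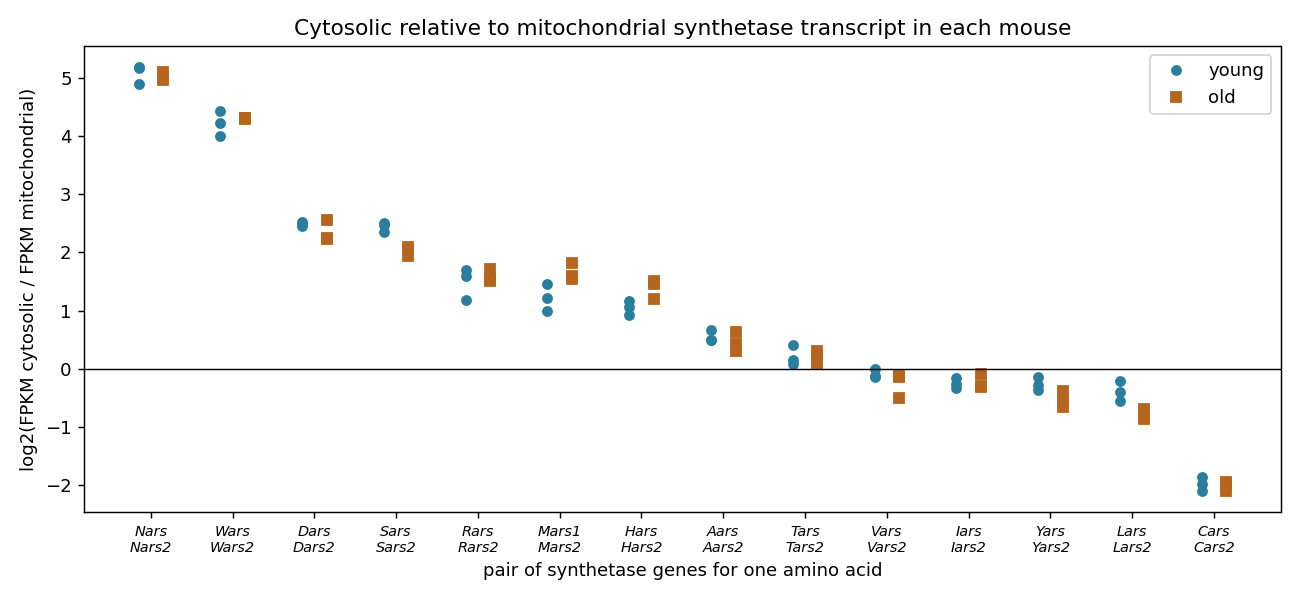
Log2 ratio of the FPKM of the cytosolic gene to that of the mitochondrial gene (y axis) for 14 amino acids (x axis), with 1 point per mouse, circles for young and squares for old. Points above the line at 0 have more cytosolic transcript per length. The serine, leucine and tyrosine pairs have all squares below all circles, and the methionine and histidine pairs have all squares above.

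Of the 10 amino acid response genes, 9 were tested, and 1 was higher (11.1%, against 11.4% of all genes called higher) and 0 lower in old hearts. The median log2 fold change of the 9 was 0.25. That 1 gene was Slc3a2, which encodes 4F2hc (CD98), the heavy chain that carries the light chains Slc7a5 and Slc7a11 to the cell surface for exchange of large neutral amino acids and cystine. Slc3a2 had 46.9, 47.2 and 49.2 CPM in young and 67.8, 65.3 and 71.8 CPM in old mice. The lowest old heart was well above the highest young one, a change of 43.1% and a fitted log2 change of 0.52 ± 0.08 (edgeR adjusted p = 0.00089). It was called in each of the 6 fits with 1 library left out, in DESeq2 (adjusted p = 1.5e-05) and with library size alone (adjusted p = 0.0035).

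The light chains did not pass. Slc7a5 (LAT1) had 6.48, 6.59 and 8.36 CPM in young and 10.98, 7.69 and 6.93 CPM in old mice, with old 1 high and the others among the young values (log2 fold change 0.25 ± 0.19, edgeR adjusted p = 0.37). Slc7a11 (xCT) had 1, 1 and 0 counts in young and 0, 1 and 0 in old libraries, below the 3 counts per group taken as the floor (0.0831 CPM in young and 0.0847 CPM in old), so no fold is given.

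Asns, asparagine synthetase, had 3.67, 3.07 and 2.94 CPM in young and 5.67, 3.37 and 5.72 CPM in old mice. Old 1 and old 3 were high, old 2 fell within the young range, and the log2 fold change of 0.60 ± 0.23 was not called (edgeR adjusted p = 0.084, and 0.018 without old 2). Chac1, a glutathione-degrading enzyme and an ATF4 target, had 1.64, 2.37 and 1.08 CPM in young and 2.57, 3.20 and 2.77 CPM in old mice. The groups did not overlap, though young 2 came near the old values, and the log2 fold change was 0.76 ± 0.29 (edgeR adjusted p = 0.083, and 0.038 without young 2).

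The enzymes that make serine from glycolysis did not differ detectably. Phgdh, Psat1 and Psph, its 3 steps in order, stood at 1.99 to 6.85 CPM over the 6 libraries and had log2 fold changes of -0.08 ± 0.27, -0.09 ± 0.19 and 0.04 ± 0.16 (edgeR adjusted p = 0.86, 0.77 and 0.87), and young and old values overlapped for all of them. In mitochondrial one-carbon metabolism, Shmt2, which splits serine into glycine and a one-carbon unit, was the most abundant response gene per length at 22.3 FPKM. That rank depends on the lengths used, 2305 bases for Shmt2 and 9850 for Slc3a2. In CPM, the means of Shmt2 and Slc3a2 were 53.8 and 47.7 in young and 48.9 and 68.3 in old mice. Shmt2 had 55.6, 49.99 and 55.7 CPM in young and 50.3, 48.8 and 47.7 CPM in old mice, with old 1 above young 2 (log2 fold change -0.14 ± 0.08, edgeR adjusted p = 0.25). Mthfd2, the next enzyme of that route and scarce in adult tissue, had 1.95, 3.51 and 2.86 CPM in young and 3.72, 4.41 and 3.21 CPM in old mice, with old 3 inside the young range (log2 fold change 0.45 ± 0.25, edgeR adjusted p = 0.21).

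**Figure D4:**
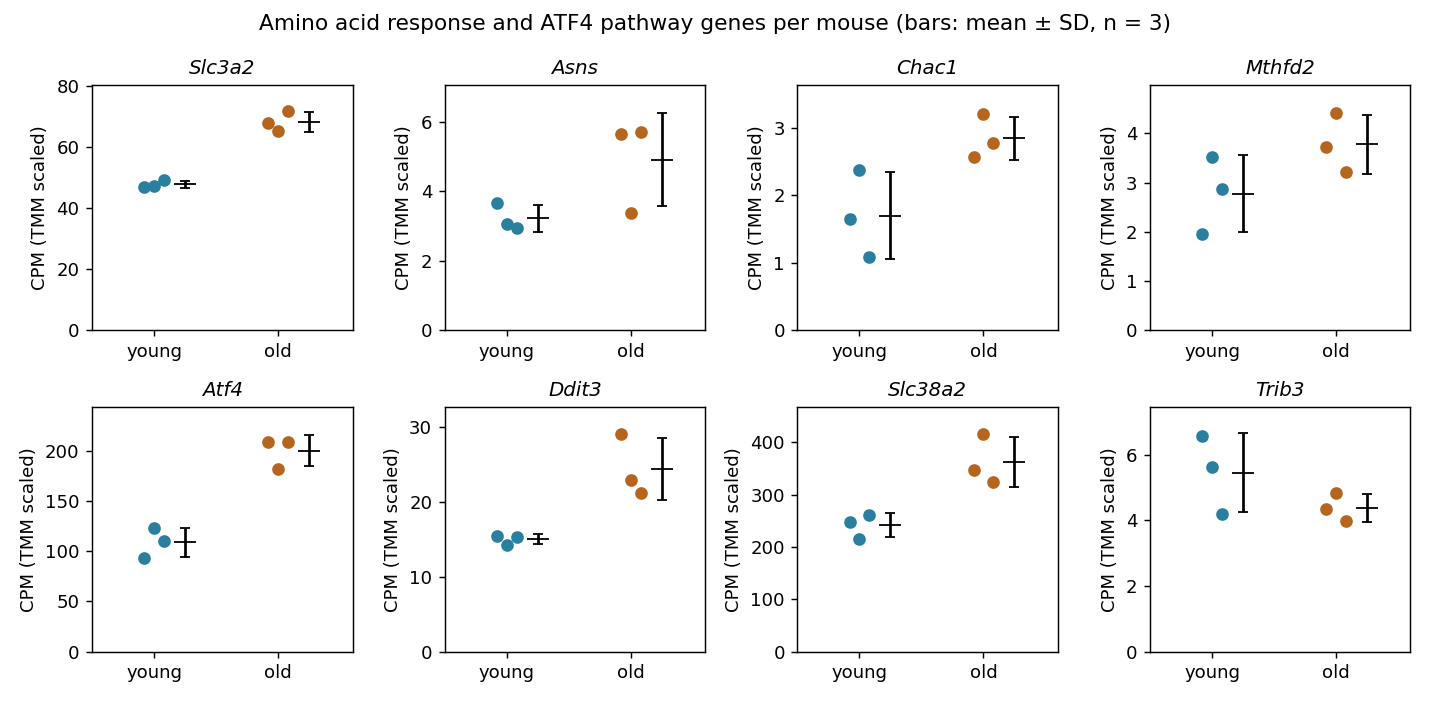
CPM (TMM scaled, y axis from 0) of 4 amino acid response genes (top row) and 4 genes of the ATF4 pathway (bottom row) in young and old hearts, with 1 point per mouse and the mean ± SD (n = 3) beside it. Old mice lie above young mice without overlap for Slc3a2, Chac1, Atf4, Ddit3 and Slc38a2, and the groups overlap for Asns, Mthfd2 and Trib3.

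Upstream of these genes, Atf4 itself was higher in old hearts. Atf4 had 93.6, 123 and 110 CPM in young and 209, 182 and 209 CPM in old mice, the lowest old heart well above the highest young one (log2 fold change 0.88 ± 0.11, edgeR adjusted p = 0.00019). Ddit3 (CHOP), the stress factor that ATF4 induces, had 15.5, 14.2 and 15.3 CPM in young and 29.0, 22.9 and 21.2 CPM in old mice, again without overlap (log2 fold change 0.70 ± 0.12, edgeR adjusted p = 0.0024). Trib3, a pseudokinase that restrains ATF4, had 6.56, 5.62 and 4.18 CPM in young and 4.34, 4.84 and 3.99 CPM in old mice, which overlapped (log2 fold change -0.31 ± 0.20, edgeR adjusted p = 0.29). The transcript of the uncharged tRNA sensor GCN2, Eif2ak4, had 12.2, 11.4 and 11.8 CPM in young and 11.9, 12.8 and 13.1 CPM in old mice, overlapping as well (log2 fold change 0.09 ± 0.11, edgeR adjusted p = 0.59). Activation of GCN2 and translation of ATF4 are protein events that these transcript levels do not measure.

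In the wider integrated stress response list 14 of 25 tested genes were called (56.0%, against 22.0% of all genes), 10 higher and 4 lower, with a median log2 fold change of 0.09, so the list did not move in one direction. Cebpb, a dimerization partner of ATF4, had the smallest p, at 22.4, 34.0 and 29.9 CPM in young and 105, 95.6 and 91.0 CPM in old mice (log2 fold change 1.76 ± 0.13, edgeR adjusted p = 6.8e-06). Its old levels were all far above the young ones. Vldlr, a lipoprotein receptor, and Eif4ebp1, the translation repressor 4E-BP1, are both ATF4 targets and fell, by 0.72 ± 0.08 and 0.55 ± 0.10 on the log2 scale (edgeR adjusted p = 0.0001 and 0.0019). Chosen after their values were seen, Slc38a2 (SNAT2), the transporter induced by amino acid shortage, and Nupr1 rose with log2 fold changes of 0.58 ± 0.11 and 0.79 ± 0.15, while Gcn1, the GCN2 activator, fell by 0.42 ± 0.09 and Impact, its inhibitor, rose by 0.41 ± 0.09 (edgeR adjusted p = 0.0034, 0.0034, 0.0085 and 0.0074).

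Of the amino acid response and synthetase genes with the element, 7 were tested. Slc7a11 is not among these 7, and they include a gene whose stretch is not printed above. Of the 7, 0 were called, against 22.0% of all genes, and their log2 fold changes ran from -0.16 (Iars) to 0.76 (Chac1). The 6 called genes had promoter entries in 3 cases, and none of those windows held the letters, which says nothing of sites elsewhere in the gene. In the integrated stress response list the element stood in 4 of 22 genes with an entry, among them 1 gene that rose (Nupr1), 1 that fell (Vldlr) and 1 that was not called (Trib3):
Nupr1, chr7:126625563-126625590: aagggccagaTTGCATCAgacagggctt
Vldlr, chr19:27216810-27216837: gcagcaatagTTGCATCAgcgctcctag
Trib3, chr2:152344029-152344056: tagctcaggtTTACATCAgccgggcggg

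Some other genes of amino acid handling had larger fold changes than any synthetase. In the one-carbon and serine-glycine list, 4 of 15 tested genes were higher and 1 lower (33.3% called, against 22.0% of all genes). The smallest p values were those of Mat2a, which makes S-adenosylmethionine, and Mtr, the methionine synthase. Mthfd1l, named after its values were seen, had the largest log2 fold change (1.3 ± 0.34, edgeR adjusted p = 0.018). Its levels were low, at 0.54 to 1.05 CPM in young and 1.47 to 2.3 CPM in old mice. Mat2a had 128, 152 and 163 CPM in young and 324, 277 and 275 CPM in old mice, without overlap (log2 fold change 0.98 ± 0.11, edgeR adjusted p = 9.7e-05). Mtr was higher in all old mice, with 97.8, 103 and 108 CPM in young and 179, 236 and 152 CPM in old hearts (log2 fold change 0.88 ± 0.14, edgeR adjusted p = 0.00098). Of 16 other amino acid enzymes 4 were higher and 2 lower (37.5% called), among them the alanine aminotransferases Gpt2 and Gpt with log2 fold changes of 0.72 ± 0.10 and 0.56 ± 0.09 (edgeR adjusted p = 0.0006 and 0.0013). Glul, 1 of the 2 lower genes, fell from a mean of 780 CPM in young to 586 CPM in old mice. Its log2 fold change was -0.41 ± 0.08 (edgeR adjusted p = 0.004).

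Of 17 other amino acid transporters 1 was higher and 4 were lower, against 11.4% and 10.6% of all genes. Slc38a1 (SNAT1), a glutamine carrier, had 10.5, 10.02 and 8.98 CPM in young and 4.78, 4.06 and 2.69 CPM in old mice, all old hearts being lower (log2 fold change -1.36 ± 0.19, edgeR adjusted p = 0.00057). Slc7a7, a light chain that pairs with Slc3a2 to export cationic amino acids, fell by 0.80 ± 0.17 on the log2 scale (edgeR adjusted p = 0.0075). Among 16 genes of amino acid sensing by mTORC1, 1 was higher and 4 were lower (31.2% called, against 22.0% of all genes). Rragd, a Rag GTPase, fell by 0.72 ± 0.12 on the log2 scale (edgeR adjusted p = 0.0019), and Sar1b, a leucine sensor, rose by 0.36 ± 0.08 (edgeR adjusted p = 0.009, and 0.055 without young 1).

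Among the factors that use or mature tRNA and carry out translation, 3 of 20 mitochondrial ones were higher and 0 lower (15% called, against 22.0% of all genes), with a median log2 fold change of -0.02. Tsfm, the mitochondrial elongation factor Ts, had 24.4, 25.8 and 23.5 CPM in young and 35.4, 33.7 and 34.7 CPM in old mice, without overlap (log2 fold change 0.49 ± 0.08, edgeR adjusted p = 0.0017). Of 20 cytosolic translation factors 3 were higher and 2 lower (25% called), led by Eif4a1, an RNA helicase of initiation, at 0.42 ± 0.08, and Eef1a2, the elongation factor that delivers charged tRNA to the ribosome in adult muscle, at -0.36 ± 0.08 (edgeR adjusted p = 0.0039 and 0.0076, the latter 0.054 without young 1).

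**Figure D5:**
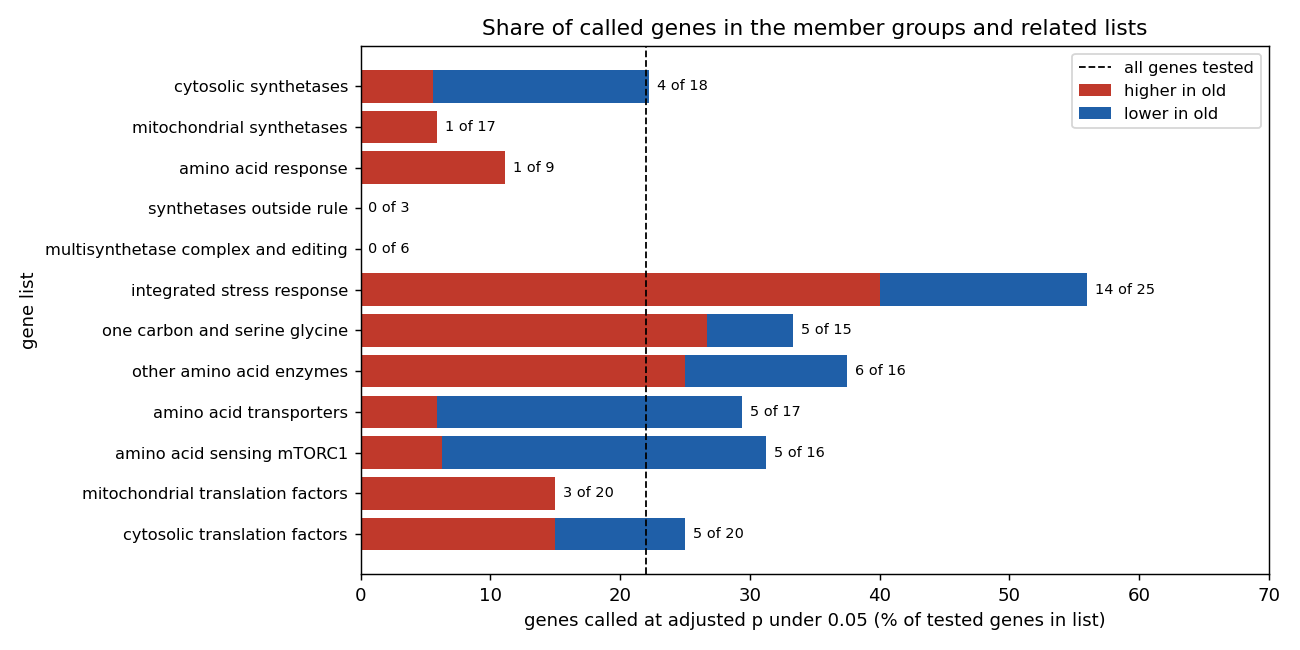
Percent of tested genes called at an adjusted p under 0.05 (x axis) in each list (y axis), with red for higher and blue for lower in old hearts, the count beside each bar and a dashed line at 22.0%, the share over all genes tested. Mitochondrial synthetases (1 of 17) and amino acid response genes (1 of 9) lie below the line, cytosolic synthetases (4 of 18) at it, and the integrated stress response (14 of 25) above it.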

How the data were processed

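RNA of 3 young and 3 old mouse hearts was analysed from the deposited gene counts, whole numbers per gene. The submitters' processing notes name HISAT2, Bowtie2, StringTie, Cufflinks, HTSeq, DESeq and Trimmomatic and the build GRCm39, without versions, roles or a strand setting. The deposited FPKM values were made by the authors and served to compare genes per length. Per the file headers, columns are named by mouse, and all 12 per-sample files equalled the tables.

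Counts were tested with edgeR 4.0.16 (R 4.3.3): filterByExpr, TMM, quasi-likelihood F test over all 6 libraries with no covariate, and Benjamini-Hochberg adjustment over 12893 genes. The SE of a log2 fold change is its size over the square root of F. Library totals were 11295280 to 12514005 counts, and replicates differed by more than sampling noise (chi-square per degree of freedom 7.9 to 16.7). The test was checked on simulated counts.

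The genes and lists were chosen with earlier results of these data known. Named genes are all called members, the 2 most expressed uncalled members per group, Aars, Iars, Asns with mitochondrial partners, Atf4, Ddit3, Trib3, Eif2ak4 and at most 4 called genes of smallest p per related list (or the 2 most expressed). Alternatives were scaling by RLE, by upper quartiles and by library size alone, other filters, a replicate block, each library left out, DESeq2 1.42.0, limma 3.58.1 on voom values and on log2(FPKM + 1 or 0.1), the 10 most abundant genes left out, a length trend removed (loess, span 0.5) and, added after seeing the data, a GC trend removed and Actc1 left out of the cardiomyocyte sum. Promoter sequences are from RefSeq (GRCm38.p6), and not every matching stretch is reported here. Overlapping genes, found for 9 of the 45 genes in the RefSeq annotation, may share counts.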

Additional observations from a re-analysis of the deposited data

How the results depend on the processing

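Over all genes, 1467 were higher and 1368 lower. Fits on FPKM called 907 (pseudocount 1), 897 (pseudocount 0.1) and 810 (no filter) higher, library size alone called 2122 lower, and fits without 1 library called 850 to 1597 higher and 682 to 1444 lower. Of the cytosolic synthetases, 1 was called higher: it was 0 with upper-quartile or library-size scaling, no filter, the replicate block, DESeq2, each FPKM fit and the length trend removed, and 0 to 1 without 1 library. The 3 called lower became 6 (upper-quartile), 7 (library size), 7, 7 and 5 (FPKM with pseudocount 1, 0.1 and no filter) and 0 to 2 without 1 library. Of the mitochondrial synthetases, the 1 called higher became 0 with library size alone, DESeq2 and FPKM without a filter, and 0 to 2 without 1 library. The 0 called lower became 1 (upper-quartile), 2 (library size) and 1 (FPKM, both pseudocounts). Amino acid response genes called higher numbered 1 to 2 without 1 library and 1 in every other fit. The causes of these shifts were not tested. Of 78 named genes tested, 34 were called and 0 changed direction where called, and 16 kept their call in every fit, Slc3a2 and Atf4 among them. The replicate block called 1417 genes higher and 1317 lower. Mice with the same number correlated at 0.078, 0.078 and 0.007 in their deviations from the group means, so the numbers were not taken as pairs. 4 of 6 mice correlated best with their own number. The scalings moved the median of all genes to at most -0.087 (library size alone). With 3 mice per group, the SE of a synthetase was 0.08 to 0.17 on the log2 scale, and one that was not called is not shown to be unchanged.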
